A study of Mus musculus with 8 samples.

Results

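The α- and β-globin loci were examined in 6 lists of H3K9ac peaks from bone marrow (BM) of *NUP98-HOXD13-tg* mice. H3K9ac, acetylation of lysine 9 of histone H3, is a mark of active promoters and enhancers. All peaks were taken that overlapped by at least 1 bp a window from 60 kb upstream to 20 kb downstream of 7 globin genes, *Hba-x*, *Hba-a1* and *Hba-a2* on chromosome 11 and *Hbb-y*, *Hbb-bh1*, *Hbb-bs* and *Hbb-bt* on chromosome 7. In mm10, the α window lay at chr11:32216400-32317298 and the β window at chr7:103792524-103913216. Of 220499 peaks in all lists, 147 belonged to these windows. There were 42 in *GFI1-36S* vehicle, 3 in *GFI1-36S* curcumin, 23 in *GFI1-36N* vehicle, 20 in *GFI1-36N* curcumin, 55 in *GFI1-KD* vehicle and 4 in *GFI1-KD* curcumin.

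Haemoglobin of adult erythroid cells is made of α chains from *Hba-a1* and *Hba-a2* and β chains from *Hbb-bs* and *Hbb-bt*, while *Hba-x*, *Hbb-y* and *Hbb-bh1* encode embryonic chains. The β genes depend on the locus control region (LCR), a group of enhancers upstream of *Hbb-y*, and the α genes on a cluster of enhancers within the introns of the neighbouring gene *Nprl3*. Both sets of enhancers are bound by erythroid factors, among them GATA1 with TAL1 and NF-E2, and H3K9ac spreads over the enhancers and the active genes in erythroid precursors.

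All mice were C57BL/6 and carried the *NUP98-HOXD13* fusion transgene, a model of myelodysplastic syndrome that progresses to acute leukaemia. They expressed the common form of GFI1 (*GFI1-36S*), the variant *GFI1-36N* or reduced amounts of GFI1 (*GFI1-KD*), a transcriptional repressor of blood cells. Mice received curcumin, the polyphenol of turmeric, at 20 mg/kg weekly by intraperitoneal injection, or DMSO as vehicle, and marrow was taken when they became ill. Each of the 6 combinations of genotype and treatment is represented by 1 library of BM cells. Differences between libraries could therefore not be set against a spread between mice, and p-values are not given. The study's methods name frozen BM cells, while the title of its ChIP-seq figure names c-kit+ cells, so any sorting is unclear. The share of erythroid cells was not measured in the files, and fewer erythroid cells cannot be told apart from less acetylation per erythroid cell.

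The lists held between 20354 peaks (*GFI1-36S* curcumin) and 49213 peaks (*GFI1-36N* curcumin). The library labelled *GFI1-36S* curcumin stood apart from the other 5. It had a promoter peak at 1 of 12 neutrophil genes, against 7 to 12 in the others, and at 11 of 12 T-cell genes, against 4 to 6. In addition, the names of the 2 deposited *GFI1-36S* lists give the opposite treatments to the sample labels, which were followed here, so the direction of every *GFI1-36S* comparison rests on those labels. The 36N list names also give a different number of variant alleles for vehicle and curcumin, which the labels do not mention.

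The sequences on which the observations below turn are shown first, read from the GRCm38 (mm10) genome or, for promoters, from RefSeq's table for GRCm38.p6, which matched the genome in all 9 globin entries. The first 3 lie in the enhancer intervals, in gaps between neighbouring peaks of *GFI1-KD* vehicle, the library with the most globin peaks. Capitals mark the NF-E2 (MARE) motif in the LCR gaps, centred 7.81 and 12.71 kb upstream of *Hbb-y* (chr7:103860945-103861113 and chr7:103865780-103866064, minus strand), and, as a single run, the composite motif of TAL1 and GATA1 with AGATAA, in the *Nprl3* intron (chr11:32245801-32245936, minus strand).
LCR gap at 7.81 kb: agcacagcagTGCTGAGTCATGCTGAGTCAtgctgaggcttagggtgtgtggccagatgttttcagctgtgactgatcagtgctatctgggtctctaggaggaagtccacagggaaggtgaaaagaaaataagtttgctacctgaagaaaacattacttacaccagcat
LCR gap at 12.71 kb: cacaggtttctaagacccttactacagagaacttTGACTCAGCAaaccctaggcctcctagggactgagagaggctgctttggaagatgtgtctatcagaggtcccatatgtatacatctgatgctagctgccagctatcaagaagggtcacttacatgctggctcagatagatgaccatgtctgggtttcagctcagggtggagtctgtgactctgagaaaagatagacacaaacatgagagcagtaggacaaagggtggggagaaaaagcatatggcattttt
Nprl3 intron gap: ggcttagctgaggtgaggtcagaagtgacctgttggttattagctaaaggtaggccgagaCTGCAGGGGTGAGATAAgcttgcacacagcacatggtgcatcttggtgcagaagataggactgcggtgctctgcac

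The promoters of the 4 adult genes are shown as the 120 bases before the RefSeq start, with 3 promoter motifs in capitals on either strand. These are the CCAAT box, the TATA box (searched for as the letters TATAA) and the box bound by KLF1 (searched for as CCACACCC). They lie at chr11:32283552-32283671 and chr11:32296372-32296491 on the plus strand and at chr7:103827929-103828048 and chr7:103813924-103814043 on the minus strand. They are shown to compare the copies of each adult gene.
Hba-a1: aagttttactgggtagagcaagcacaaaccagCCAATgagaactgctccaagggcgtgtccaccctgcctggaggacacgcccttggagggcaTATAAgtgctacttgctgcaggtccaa
Hba-a2: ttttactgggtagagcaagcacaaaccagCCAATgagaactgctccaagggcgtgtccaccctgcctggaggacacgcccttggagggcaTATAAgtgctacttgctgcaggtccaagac
Hbb-bs: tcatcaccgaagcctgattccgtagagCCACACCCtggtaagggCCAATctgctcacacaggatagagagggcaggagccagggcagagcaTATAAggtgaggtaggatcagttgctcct
Hbb-bt: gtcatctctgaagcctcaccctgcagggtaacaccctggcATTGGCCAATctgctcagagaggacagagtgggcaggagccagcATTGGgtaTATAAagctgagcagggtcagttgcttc

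Lined up on the TATA box, *Hba-a1* and *Hba-a2* were identical at 117 of 117 bases, and *Hbb-bs* and *Hbb-bt* at 88 of 119. Each promoter held CCAAT, which was found in 21.3% of all 32851 RefSeq promoters over the same 120 bases, and TATAA, found in 11.8%. The *Hbb-bs* promoter also held CCACACCC, found in 1.84%, and the *Hbb-bt* window did not hold these letters. None of the 4 windows held AGATAA, found in 4.36% of promoters.

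In the α window, the promoters of 2 neighbouring genes were acetylated in all 6 libraries. At the promoter of *Nprl3*, a subunit of a complex that restrains mTORC1, fold enrichment (the fragments at the summit over the local background) was 26.2 and 17.3 in *GFI1-36S* vehicle and curcumin, then 23.7 and 27.3 in the *GFI1-36N* pair, then 27.2 and 22.9 in the *GFI1-KD* pair. At the promoter of *Mpg*, a DNA repair glycosylase, it was 22.2 and 14.2, 17.2 and 25.96, and 21.2 and 19.3. The *Rhbdf1* promoter, upstream of them, had a peak of 4.32 to 7.46 in every library except *GFI1-36S* curcumin. The *Nprl3* promoter peak was narrower in curcumin in each genotype. It spanned 2281 and 869 bp in the *GFI1-36S* pair, 2207 and 1728 bp in the *GFI1-36N* pair, and 3998 and 1504 bp in the *GFI1-KD* pair. The part of erythroid cells in these promoter peaks was not tested. Of the peaks of *GFI1-36S* curcumin 2 of 3, and of those of *GFI1-KD* curcumin 3 of 4, were at these neighbour promoters. Outside them, the 2 loci held 39, 1, 20, 16, 52 and 1 peaks in the same order of libraries.

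The *Nprl3* gene, whose introns hold the α enhancers, carried most of the remaining α peaks. Away from its promoter there were 17 peaks over 6637 bp in *GFI1-36S* vehicle, 8 over 4635 bp in *GFI1-36N* vehicle, 8 over 3052 bp in *GFI1-36N* curcumin and 18 over 15241 bp in *GFI1-KD* vehicle. Both *GFI1-36S* curcumin and *GFI1-KD* curcumin had 1, of 216 and 327 bp. Enhancers were placed by their textbook distances from *Hba-x*. Of peaks reaching within 1 kb of R1, 31 kb upstream, the strongest had a fold enrichment of 5.62 in *GFI1-36S* vehicle, 3.74 and 3.46 in *GFI1-36N* vehicle and curcumin, and 7.95 in *GFI1-KD* vehicle, with no peak in the other 2 libraries. At R2, 26 kb upstream, only *GFI1-36S* vehicle (3.38) and *GFI1-KD* vehicle (3.85 and 5.22) had a peak reaching within 1 kb. The peak of *GFI1-36S* vehicle reached in by only 86 bp. Its summit and that of the *GFI1-KD* vehicle peak of 5.22 lay farther out. Near R3, 21 kb upstream, there were 2 neighbouring sites. At chr11:32255078-32256180 the values were 2.87 in *GFI1-36S* vehicle, 3.18 in *GFI1-36N* vehicle and 4.40 in *GFI1-KD* vehicle. At chr11:32256227-32257737, which only partly reaches within 1 kb of R3, they were 4.30 in *GFI1-36S* vehicle, 3.45 and 3.46 in *GFI1-36N* vehicle and curcumin, and 8.77 in *GFI1-KD* vehicle. At Rm, 12 kb upstream, they were 3.71 in *GFI1-36S* vehicle, 3.81 in *GFI1-36N* curcumin (172 bp at the edge) and 4.66 in *GFI1-KD* vehicle. *GFI1-36N* vehicle had a peak of 4.89 just beyond 1 kb of Rm, with its summit 10.32 kb upstream. *GFI1-KD* vehicle thus had the highest value at each of these 4 positions, and neither *GFI1-36S* curcumin nor *GFI1-KD* curcumin had a peak at any of them. The position of R4, 8 kb upstream, falls in the flank of the *Nprl3* promoter peak and could not be read on its own.

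One site within an *Nprl3* intron, at chr11:32246212-32249306, was the only site of the 2 loci other than the *Nprl3* and *Mpg* promoters with a peak in all 6 libraries. Its fold enrichment was 3.92 and 2.67 in *GFI1-36S* vehicle and curcumin, then 5.03 and 5.19 in the *GFI1-36N* pair, then 7.25 and 3.16 in the *GFI1-KD* pair. The peak of *GFI1-36S* curcumin there rested on 14 fragments, the lowest number that gave a peak in that list at its genome background, and that of *GFI1-KD* curcumin on 18, where the lowest was 15. These 2 peaks (chr11:32247561-32247776 and chr11:32247146-32247472) do not overlap each other and join only through the *GFI1-KD* vehicle peak of 3095 bp, whose summit lies outside both, so the values are from different positions. In each of these libraries it was the only globin peak away from the neighbour promoters.

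The α-globin genes themselves carried peaks on their flanks. From *Hba-x* on there were 13 peaks over 9964 bp in *GFI1-KD* vehicle, 5 over 1935 bp in *GFI1-36S* vehicle, 6 over 1545 bp in *GFI1-36N* vehicle, 1 of 223 bp in *GFI1-36N* curcumin and 0 in the other 2. Within 1 kb of the start of *Hba-a1*, the strongest peak was 3.85 in *GFI1-36S* vehicle, 3.45 in *GFI1-36N* vehicle and 5.90 in *GFI1-KD* vehicle. For *Hba-a2*, it was 3.88 in *GFI1-36S* vehicle and 7.67 in *GFI1-KD* vehicle. *Hbq1b*, a θ-globin gene between the 2 α genes, had 90.1% of its length in peaks in *GFI1-KD* vehicle, with a fold enrichment of up to 7.81, and 0% in the other 5. *Hba-x*, the embryonic ζ gene, had no peak within 1 kb of its start in any library, and the nearest peak in *GFI1-KD* vehicle was 4668 bp away.

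**Figure D1:**
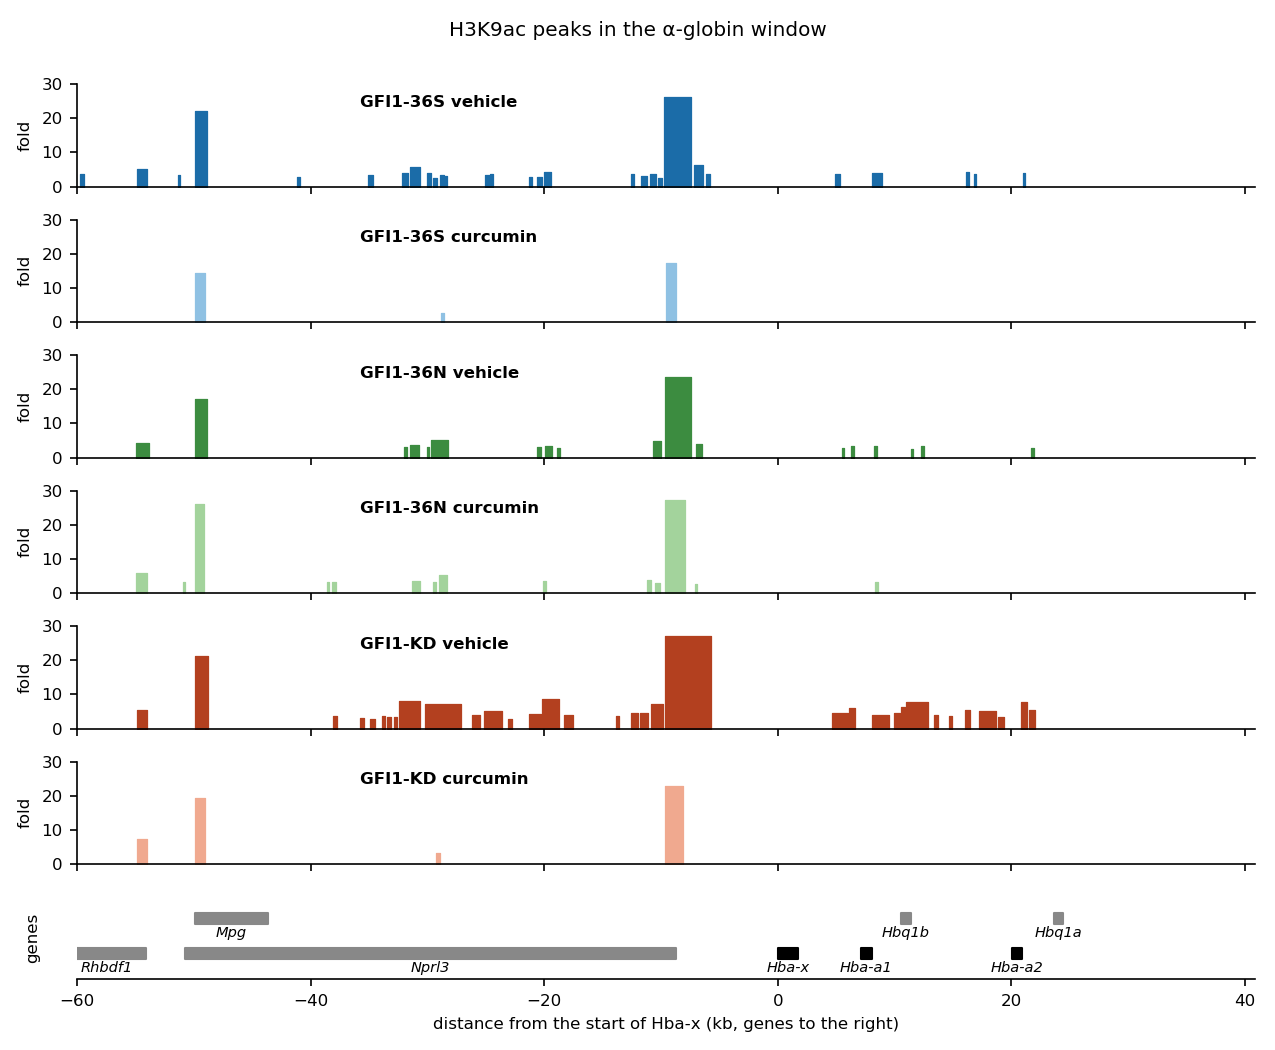
H3K9ac peaks of the α-globin window in the 6 libraries, with the distance from the start of *Hba-x* in kb on the x axis and the fold enrichment of each peak on the y axis (each bar spans 1 peak) above the genes (black for the globin genes of the rule, grey for others). The *Mpg* and *Nprl3* promoter peaks stand in every row, and the α-globin genes carry 13 peaks in *GFI1-KD* vehicle and 0 in *GFI1-KD* curcumin.

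The β window contains no such neighbour promoter, and its peaks were those of the LCR and the adult genes. The interval from 1 kb upstream of *Hbb-y* to the olfactory receptor gene *Olfr66* held 11 peaks over 11893 bp in *GFI1-KD* vehicle, 8 over 5243 bp in *GFI1-36S* vehicle, and 3 each in *GFI1-36N* vehicle (1026 bp) and *GFI1-36N* curcumin (645 bp). The strongest was in *GFI1-KD* vehicle, with its summit 7.07 kb upstream of *Hbb-y*, a fold enrichment of 9.18 (7.13 to 11.6, exact 95% Poisson interval, counting error only) and 66 fragments. The peak across the gap from it, with its summit 8.38 kb upstream, reached 8.36. In *GFI1-36S* vehicle the strongest LCR peak, 8.33 kb upstream, had 5.23 (3.59 to 7.38). The LCR peaks of *GFI1-36N* vehicle did not exceed 3.598 and those of *GFI1-36N* curcumin 3.46.

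At the adult β genes, *GFI1-KD* vehicle again had the longest cover and *GFI1-36S* vehicle the next. *Hbb-bt* and *Hbb-bs* with their flanks held 10 peaks over 5571 bp in *GFI1-KD* vehicle, 5 over 1648 bp in *GFI1-36S* vehicle, 2 over 580 bp in *GFI1-36N* vehicle and 3 over 708 bp in *GFI1-36N* curcumin. The strongest, at the 3′ end of *Hbb-bt* in *GFI1-KD* vehicle, had 8.90 (6.89 to 11.3) on 64 fragments. *Hbb-bs* had a promoter peak of 4.55 in *GFI1-36S* vehicle and 5.63 in *GFI1-KD* vehicle, and *Hbb-bt* of 3.55 and 5.49. The 2 *GFI1-36N* libraries had a peak at the 3′ end of *Hbb-bt* (3.598 in vehicle, 4.15 in curcumin) but none within 1 kb of either start.

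The embryonic genes *Hbb-y* and *Hbb-bh1*, and *Hbb-bh2*, had no promoter peak in any of the 6 libraries, and the stretch between the LCR and *Hbb-bs* that holds them was without peaks. In *GFI1-KD* vehicle, the nearest peak was 5246 bp from the start of *Hbb-y* and 15233 bp from that of *Hbb-bh1*. The olfactory receptor genes upstream of the LCR had none either. In *GFI1-36S* curcumin and *GFI1-KD* curcumin the whole window was without a peak, within peak-free stretches of 1.48 Mb and 0.456 Mb. Such stretches are not rare, with 354 and 1058 at least as long in those lists.

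**Figure D2:**
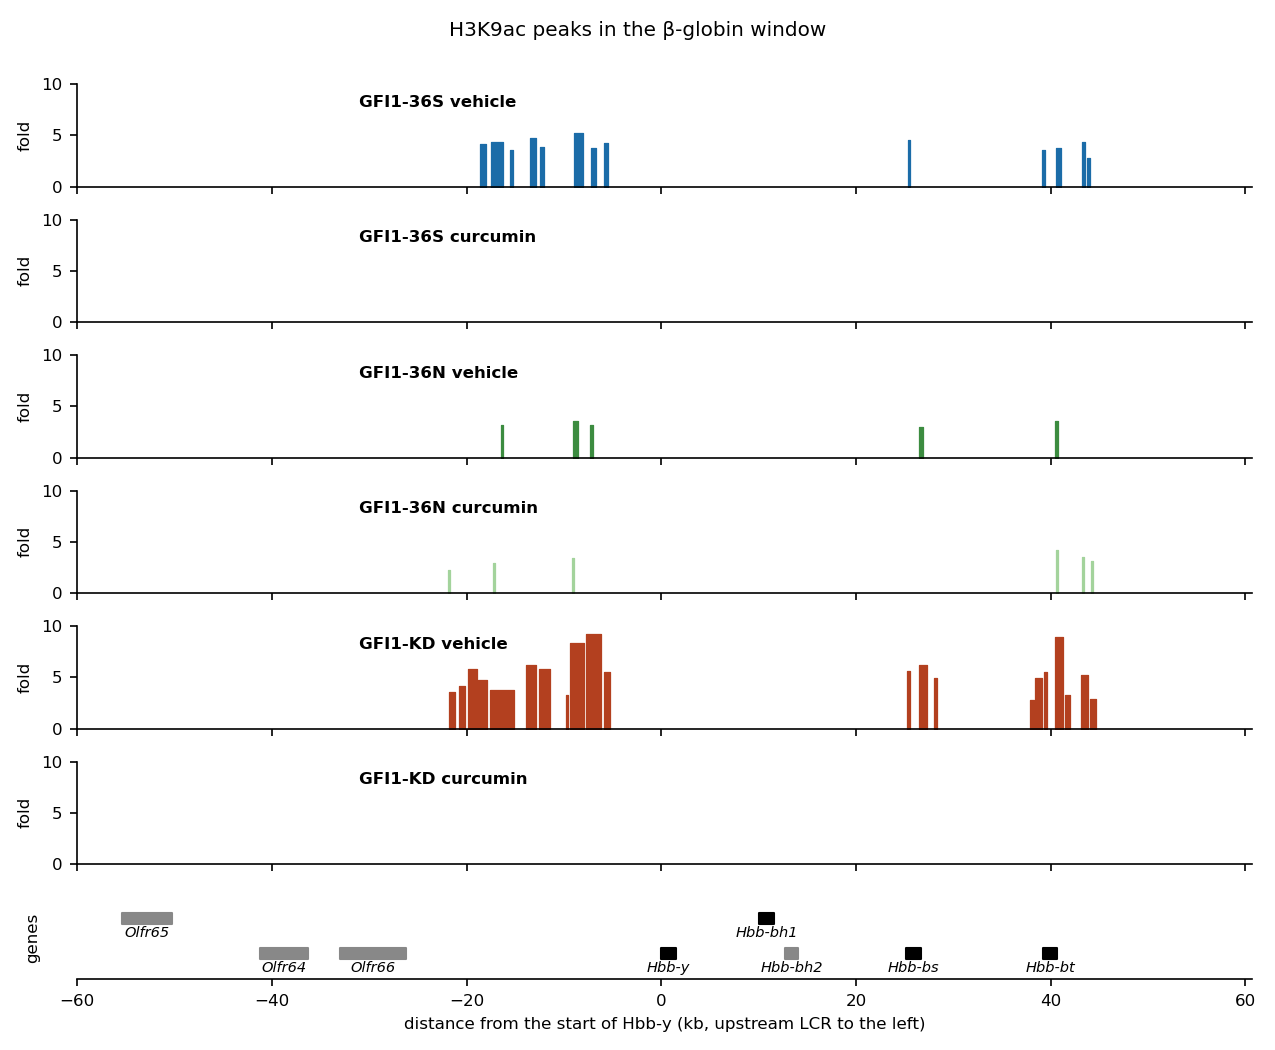
H3K9ac peaks of the β-globin window, drawn as for the α window, with the distance from the start of *Hbb-y* in kb (LCR to the left, adult genes to the right). Peaks fall into 2 blocks, the LCR and the adult genes, with 21 peaks in *GFI1-KD* vehicle and 0 in the *GFI1-36S* and *GFI1-KD* curcumin libraries.

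The gaps between peaks had their own pattern. *GFI1-KD* vehicle had 28 gaps of 50 to 500 bp between neighbouring peaks of the 2 windows, 16 in the α and 12 in the β window. The tandem NF-E2 motif printed above lies in the LCR gap of 169 bp, 11 bp from the peak on its far side, and the single one in the gap of 285 bp, 35 bp from the nearest peak. These 3 motif matches were picked because they lie in gaps of *GFI1-KD* vehicle, so its peaks could not cover them. No peak of the other libraries covered them either. *GFI1-36S* curcumin and *GFI1-KD* curcumin could not have covered them, as they had no peak in the β window. The *GFI1-36N* libraries had only 3 LCR peaks each. In *GFI1-36S* vehicle, the nearest peaks began 168 bp from the tandem and 36 bp from the single match, so the same positions lay between peaks in a second library. The motif was present in 2 of the 28 gaps (7.14%), against 0.719% of all 9035 such gaps of that list, and in 0 of the 55 windows of 300 bp around the globin summits, against 0.527% of all summits. All 5 matches in the β window and both in the α window lay outside the peaks of *GFI1-KD* vehicle, which left most of each window free, as they covered 31.01% of the α and 14.5% of the β window.

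AGATAA was present in 6 of the 28 gaps (21.4%), against 13.2% of all such gaps, and in 12 of the 55 summit windows (21.8%), against 10.9% of all. Of its 51 matches in the α window 16 were inside *GFI1-KD* vehicle peaks, and of 106 in the β window 16, which is close to the share of each window in peaks. The composite TAL1 and GATA1 motif was present in 1 of the 28 gaps (3.57%), against 3.55% of all, which is the background. That gap, of 494 bp, separates the R1 peak from the site found in all 6 libraries. CCACACCC was present in 2 of the 28 gaps (7.14%), the same share as the NF-E2 motif, against 2.92% of all.

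The adult gene bodies consist largely of sequence repeated within their window. Stretches in which every base belongs to a 50-mer found again in the same window made up 7.60% of the α and 7.93% of the β window. They covered 99.9% of *Hba-a1* and *Hba-a2*, 74.5% of *Hbb-bs* and 79.0% of *Hbb-bt*, against 0% of *Hba-x*, *Hbb-y* and *Hbb-bh1*. In *GFI1-KD* vehicle, peaks covered 17.95, 21.6, 23.0 and 32.7% of the repeated runs that hold *Hba-a1*, *Hba-a2*, *Hbb-bs* and *Hbb-bt*. The gap over *Hba-a1* (chr11:32283005-32284485, 1481 bp) was 96.3% such bases, that over *Hba-a2* 97.4%, and those over *Hbb-bs* and *Hbb-bt* 99.9% each. The handling of reads that fit 2 places is not given in the sources used here, and its part in these gaps was not tested. Of the gene bodies, *GFI1-KD* vehicle peaks covered 41.2% of *Hbb-bt*, 30.5% of *Hbb-bs*, 10.7% of *Hba-a2* and 0% of *Hba-a1*.

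The effect of curcumin on acetylation was asked in each genotype. In *GFI1-KD*, the length in peaks was 31288 bp in vehicle and 3615 bp in curcumin in the α window (11.6%), and 17464 and 0 bp in the β window, against 69.3% for the whole list. A length of at most 20% of that in vehicle was found in 4.32% of windows of 100 kb over the genome. Peaks were merged over libraries into 59 sites, 39 in the α and 20 in the β window. Of the 53 sites with a peak in *GFI1-KD*, 4 were in both libraries, 49 in vehicle only and 0 in curcumin only, where vehicle-only sites made up 36.3% and curcumin-only sites 9.22% of all sites of that pair. The 4 sites kept were the *Rhbdf1*, *Mpg* and *Nprl3* promoters and the intronic site named above. The 49 sites had a median of 37 fragments, and at 32 of them the lower bound of the vehicle fold enrichment was above the weakest peak of the curcumin list at its genome background (2.66), compared with 33.4% of all vehicle-only sites. With 20354 top peaks taken from each list, 31 of 34 globin sites were in vehicle only (background 19.7%) and 0 in curcumin only (12%).

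In *GFI1-36S*, the length in peaks was 14457 and 1931 bp in the α window (13.4%) and 6891 and 0 bp in the β window, but the whole list was also at 44.3%. At most 20% of the vehicle length was seen in 21.2% of windows. Of 30 sites, 3 were in both, 27 in vehicle only and 0 in curcumin only, where 57.3% of all sites were in vehicle only and 9.85% in curcumin only. At 12 of the 27 the lower bound was above the weakest curcumin peak, compared with 46.1% of all. With equal numbers of peaks, 8 sites remained, 5 in vehicle only (background 31.1%), 1 in curcumin only (21.3%) and 2 in both. Should the list names and not the labels be right, the 27 sites would be in curcumin only, and the 2 genotypes would differ in direction.

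In *GFI1-36N*, both windows also held less peak length in curcumin relative to the whole list, but by less than in *GFI1-36S* and *GFI1-KD*. The length in peaks was 11038 bp in vehicle and 7169 bp in curcumin in the α window (64.9%). It was 1606 and 1353 bp in the β window (84.2%), with 116.2% for the whole list. At most 20% was seen in 0.24% of windows. Peaks outside the neighbour promoters covered 230 bp per Mb of all peak length in vehicle and 115 in curcumin. The same values were 466 and 13.3 in *GFI1-36S*, and 1017 and 11.2 in *GFI1-KD*. Of 24 sites, 11 were in both, 7 in vehicle only (background 13.7%) and 6 in curcumin only (background 31.8%). None of these 13 sites had a lower bound above the weakest peak of the other list, compared with 23.9% of all vehicle-only and 27.1% of all curcumin-only sites of this pair, and they had 18 to 24 fragments. In the α genes, 6 vehicle peaks stood against 1 in curcumin.

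**Figure D3:**
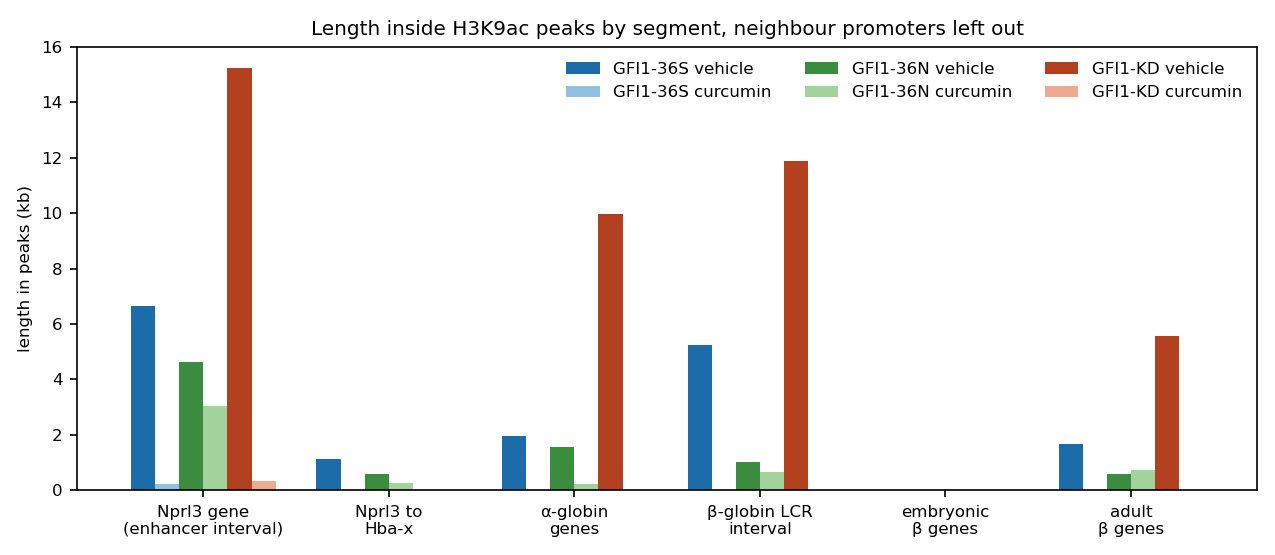
Length inside H3K9ac peaks, in kb, for 6 segments of the globin loci (groups on the x axis) in the 6 libraries (coloured bars, 1 library each, no error bars), without the *Rhbdf1*, *Mpg* and *Nprl3* promoters. *GFI1-KD* vehicle has the longest bar in the *Nprl3*, α-gene, LCR and adult β segments, and no library has any length in the embryonic β segment. Between *Nprl3* and *Hba-x* it has none, as its *Nprl3* promoter peak of 3998 bp runs through that segment.

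Among the vehicle libraries, the order was *GFI1-KD*, *GFI1-36S* and *GFI1-36N* by the labels. With the *GFI1-36S* treatments exchanged, *GFI1-36S* vehicle would hold 3 peaks (1 outside the neighbour promoters) against 23 (20) in *GFI1-36N*, and would come last. Of 57 sites of *GFI1-36S* and *GFI1-KD* vehicle, 26 were in both, 27 in *GFI1-KD* only (background 23.9%) and 4 in *GFI1-36S* only (18.1%). Of 53 sites of *GFI1-36N* and *GFI1-KD* vehicle, 18 were in both, 35 in *GFI1-KD* only (25.8%) and 0 in *GFI1-36N* only (19.4%). Where both had a peak outside the neighbour promoters, *GFI1-KD* had the higher fold enrichment at 21 of 23 sites against *GFI1-36S* (medians 5.49 and 3.88) and at 15 of 15 against *GFI1-36N* (7.13 and 3.31). Its rank within its own list was also higher at 21 and 15 of them (medians 58.6 and 36.2, and 66.8 and 21.4). The same share over all shared sites of these pairs was not counted, so these counts have no background. *GFI1-36S* and *GFI1-36N* vehicle shared 14 of 34 sites, with 16 in *GFI1-36S* only (21.7%) and 4 in *GFI1-36N* only (21.1%). Among the curcumin libraries, 13 of the 17 sites of *GFI1-36N* were absent from *GFI1-KD* (background 43.3%) and 14 from *GFI1-36S* (65%), and neither library had a site that *GFI1-36N* lacked (5.94 and 7.23%). *GFI1-KD* had 1 site that *GFI1-36S* lacked (46.6%). These comparisons share libraries and are not independent.

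Fold enrichment is not normalized between libraries, so each peak was also ranked within its own list, from 0 for the weakest to 100 for the strongest. The strongest globin peak outside the neighbour promoters stood at 64.4 in *GFI1-36S* vehicle, 0.956 in *GFI1-36S* curcumin, 56.7 and 60.7 in *GFI1-36N* vehicle and curcumin, 72.2 in *GFI1-KD* vehicle and 6.47 in *GFI1-KD* curcumin. Their medians were 31.4 in *GFI1-36S* vehicle, 19.8 and 22.1 in *GFI1-36N*, and 51.0 in *GFI1-KD* vehicle. These ranks come from lists of different length, and among the 20354 top peaks of each list the *GFI1-36N* order turned, with 15.9 in vehicle and 4.91 in curcumin. The *Nprl3* promoter ranked between 88.1 and 94.1 in all 6. The globin peaks of *GFI1-KD* vehicle had a median width of 630 bp, compared with 373 bp in *GFI1-36S* vehicle and 288 and 230 bp in *GFI1-36N*, while the median of the whole lists was 480 to 634 bp.

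**Figure D4:**
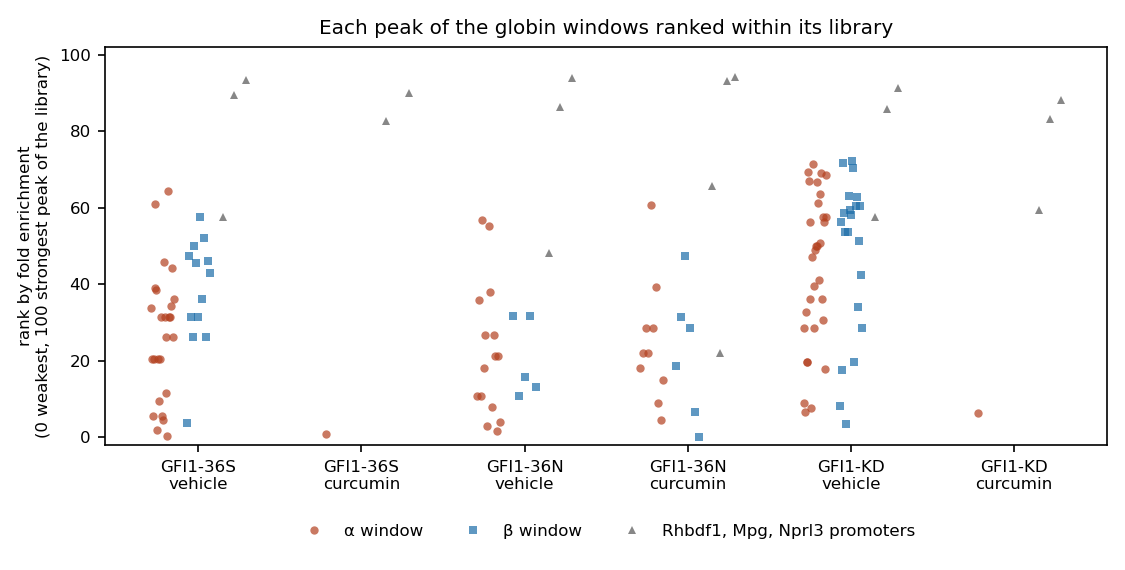
Rank of each peak of the globin windows by fold enrichment within its library (y axis, 0 weakest and 100 strongest) in the 6 libraries (x axis), with α peaks as circles, β peaks as squares and the 3 neighbour promoters as triangles. Outside the triangles, *GFI1-KD* vehicle reaches 72.2, and the *GFI1-36S* and *GFI1-KD* curcumin libraries hold 1 peak each, at 0.956 and 6.47.

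The factors that act on these loci were described by their own promoters. Of 14 globin regulators, 14 had a promoter peak in *GFI1-36S* vehicle, 7 in *GFI1-36S* curcumin, then 12 and 13 in the *GFI1-36N* pair, then 14 and 12 in the *GFI1-KD* pair. Each strongest promoter peak was ranked from 0 to 100 among the genes with one, with 0 for no peak. *Klf1*, the activator that binds CACCC boxes, ranked at 65.3 and 24.8 in *GFI1-36S* vehicle and curcumin, then 36.3 and 68.9 in the *GFI1-36N* pair, then 50.3 and 47.2 in the *GFI1-KD* pair. *Nfe2*, which encodes the NF-E2 subunit specific to blood cells, ranked at 44.0 and 20.4, 78.1 and 90.6, and 59.7 and 54.6. *Tal1*, a partner of GATA1, ranked at 42.0 and 0, 17.6 and 17.5, and 56.9 and 16.7. *Gata1* itself had weak peaks, at 14.1 and 0, 0 and 3.90, and 11.1 and 0. *Sox6*, a repressor of embryonic β genes, had a peak in *GFI1-36S* vehicle (11.7) and *GFI1-KD* vehicle (23.6) only. The median change of the list from vehicle to curcumin was −19.6, 3.59 and −4.23 in *GFI1-36S*, *GFI1-36N* and *GFI1-KD*, beside −6.73, 1.98 and −2.37 over all protein-coding genes with a peak. In *GFI1-KD*, 11 of 14 regulators ranked lower in curcumin, beside 7670 of 12171 protein-coding genes.

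Erythroid genes outside the globin loci went with them in part. Of 15 matched genes, 14 had a promoter peak in *GFI1-36S* vehicle and 3 in *GFI1-36S* curcumin, then 14 and 9 in the *GFI1-36N* pair, then 13 and 7 in the *GFI1-KD* pair. The median change was −23.5 in *GFI1-36S*, 1.495 in *GFI1-36N* and −21.0 in *GFI1-KD*. In *GFI1-KD*, 12 of 13 ranked lower in curcumin and 1 higher, beside 7670 of 12171 protein-coding genes that ranked lower. *Slc4a1*, the band 3 anion exchanger, ranked at 34.0 in vehicle and 1.11 in curcumin, and *Alas2*, the first enzyme of heme synthesis in erythroid cells, at 15.3 and 0. *Fech*, which inserts iron into heme and is used in every cell type, ranked at 59.0 and 74.3, the 1 that was higher. In *GFI1-36N*, where 8 of 14 ranked higher and 6 lower, beside 7471 of 12333 protein-coding genes that ranked higher, *Slc4a1* and *Alas2* had a peak in vehicle (10.4 and 0.125) and none in curcumin.

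Lists of other blood cells were set beside these. Neutrophil genes had a promoter peak in 12, 1, 11, 11, 12 and 7 of 12 cases in the order of libraries used above, T-cell genes in 5, 11, 6, 5, 6 and 4 of 12, B-cell genes in 2, 2, 2, 2, 4 and 2 of 8, and progenitor genes in 7, 1, 7, 7, 7 and 8 of 8. In *GFI1-36S* curcumin the erythroid, neutrophil and progenitor lists were thus all low and the T-cell list high. In *GFI1-KD* curcumin 7 neutrophil genes ranked lower than in vehicle and 5 higher (median change −11.5), and 4 progenitor genes lower and 4 higher (1.19). Of the neutrophil list, *S100a8* and *S100a9* ranked at 75.1 and 60.3 in *GFI1-KD* vehicle, against 10.5 and 0 in curcumin. *Mpo* and *Ctsg* went the other way, from 15.1 and 15.5 to 26.3 and 17.7. *Hoxa9* of the progenitor list ranked at 11.5 in *GFI1-KD* vehicle and 99.2 in *GFI1-KD* curcumin. It ranked at 97.4 in *GFI1-36S* vehicle and at 99.4 and 99.7 in the *GFI1-36N* pair. The part of these lists in the globin result was not tested. Over all protein-coding genes, 45.2% (*GFI1-36S* curcumin) to 55.2% (*GFI1-36N* curcumin) had a promoter peak.

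**Figure D5:**
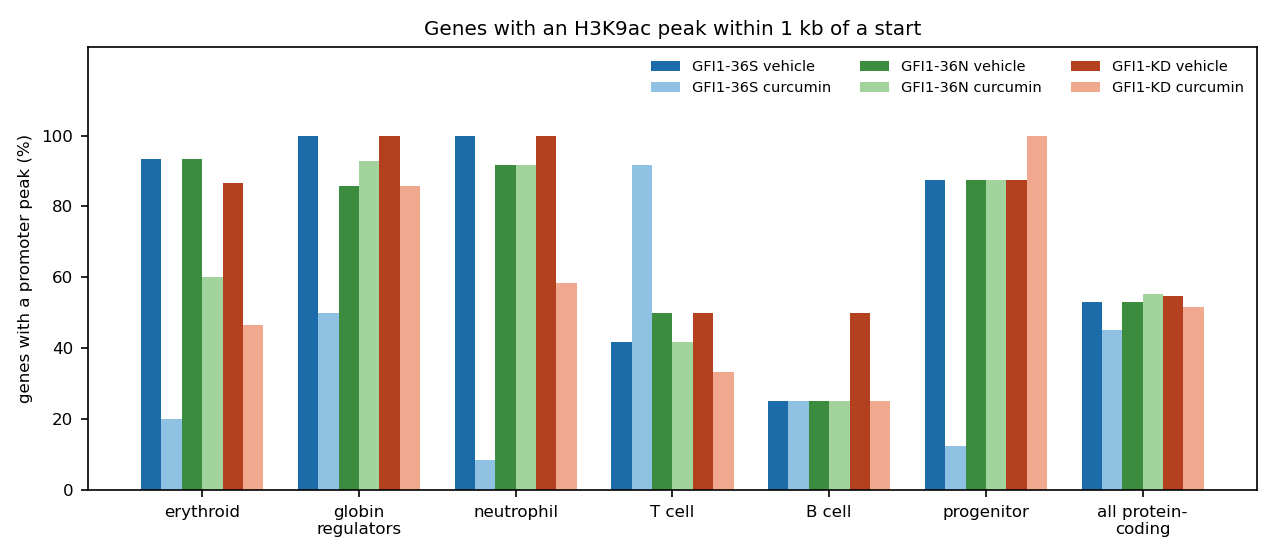
Share of genes with an H3K9ac peak within 1 kb of a start (y axis, %) for 6 gene lists and all protein-coding genes (x axis) in the 6 libraries (coloured bars, 1 library each, no error bars). The erythroid list has 13 of 15 genes with a peak in *GFI1-KD* vehicle and 7 in *GFI1-KD* curcumin, and *GFI1-36S* curcumin is low for erythroid and neutrophil genes and high for T-cell genes.

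The strongest peak of the α window, at the *Nprl3* promoter, was compared with the promoters of all other protein-coding genes by the root mean square difference in rank over the 6 libraries. These ranks are among genes with a promoter peak, where the *Nprl3* peak stood between 64.4 and 77.0, and not among all peaks. The closest were *Orc5* (2.92), *Ipo11* (2.98), *Rexo4* (3.02), *Nsmaf* (3.36) and *Commd3* (3.53). They are the smallest differences among all these promoters, and no background is given for them.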

How the data were processed

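H3K9ac ChIP-seq of 6 BM samples was used, 1 per genotype and treatment. Input and rabbit IgG samples were not used here. Per the study's methods and the submitters' processing notes, adapters were removed with Trim Galore, reads were mapped to mm10 with BWA, and peaks were called per library with MACS2 with black-listed regions (ENCODE) removed. The deposited fold enrichment (a ratio), −log10 p, −log10 q (a log10 scale) and integer score of each peak are the authors' values from the peak caller. The control of each list, the threshold, versions, and the handling of duplicates and of reads with 2 places are not given in the sources used here.

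Genes came from GENCODE M21 (GRCm38), with Python 3.11.15, pandas 2.3.3, numpy 2.4.6, scipy 1.17.1 and matplotlib 3.10.9. Promoters spanned 1 kb on each side of a start. Touching peaks were merged into sites. Fragments at a summit were recovered from fold enrichment and p by the formula of MACS2, which held within 0.002 on the −log10 scale for at least 98.6% of peaks per library, with exact 95% Poisson intervals that cover counting error only. The weakest peaks held 13 to 17 fragments at the genome background, which bounds what each list could show. Backgrounds were the same calls over all sites, or over windows of 100 kb with at least 2000 bp in peaks in 1 library of the pair. Named genes were the 7 globin genes, other genes of the windows and the 5 promoters nearest in rank to the strongest α peak. Examples from the regulator, erythroid, neutrophil and progenitor lists were also named. *Ahsp* of the erythroid list was not matched. The steps were tested on simulated data. The settings varied were the minimum −log10 q (5), an equal number of peaks per list (the 20354 with the highest −log10 p), windows of 40 and 10 kb, summits in the window, an overlap of 50% of the shorter peak, merging across 500 bp, rank by −log10 p and exchanged *GFI1-36S* treatments. The members and lists were chosen with earlier results of these data known, and the CCAAT and TATAA motifs, the gap comparison and the repeat comparison after the data were seen.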

Additional observations from a re-analysis of the deposited data

How the results depend on the processing

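The direction in *GFI1-KD* held under all 4 alternatives run for it, with 0 sites in curcumin only in each. The curcumin list had only 4 globin peaks, each overlapping a vehicle peak. Merging could therefore not give a curcumin-only site, and the other settings could give few. Vehicle-only sites numbered 40 with a −log10 q of at least 5, 31 with the 20354 top peaks of each list, 49 with an overlap of 50% of the shorter peak, and 21 with merging across 500 bp. In *GFI1-36S* they numbered 16, 5, 27 and 18, with 1 curcumin-only site among the top peaks, and exchanging the treatments gave 0 vehicle-only and 27 curcumin-only sites. In *GFI1-36N* vehicle-only sites numbered 4 at the stricter q, 1 with top peaks, 9 with the 50% overlap and 3 with merging. Curcumin-only sites there numbered 1, 1, 8 and 3. Peaks per library at the stricter q were 20, 11 and 7 in *GFI1-36S* vehicle, *GFI1-36N* vehicle and *GFI1-36N* curcumin, and with top peaks 8, 4 and 4, and 34 in *GFI1-KD* vehicle. The window of 40 and 10 kb left 2 in *GFI1-KD* curcumin. The strongest rank by −log10 p was 63.7 and 0.0368 in *GFI1-36S* vehicle and curcumin, 71.7 and 3.99 in *GFI1-KD*. Among the top peaks it was 27.8 in *GFI1-36S* vehicle, 15.9 and 4.91 in *GFI1-36N* vehicle and curcumin, and 46.3 in *GFI1-KD* vehicle, while *GFI1-KD* curcumin had none left. The stricter q, the top peaks and the narrower window leave fewer peaks by construction.

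No paired analysis was possible because each group has 1 library and the labels carry no replicate numbers. Leaving out a replicate could not be done for the same reason. A site without a peak is one below the threshold of its list, not one shown to lack the mark.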

Other observations

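*Lmo2*, which bridges GATA1 and TAL1 at globin enhancers and is also active in progenitors, ranked at 98.8 in *GFI1-36S* vehicle, 0 in *GFI1-36S* curcumin, then 95.8 and 91.7 in the *GFI1-36N* pair, then 97.5 and 94.2 in the *GFI1-KD* pair. *Klf3*, a repressor of the KLF family, ranked at 96.9 and 14.7 in *GFI1-36S*, and between 88.7 and 96.7 in the other 4 libraries. *Tfrc*, the transferrin receptor by which cells take up iron, ranked at 64.5 and 78.6 in *GFI1-36S* vehicle and curcumin, then 44.1 and 72.7 in the *GFI1-36N* pair, then 59.0 and 44.5 in the *GFI1-KD* pair.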
